A study of Mus musculus with 2 samples.

Results

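Ephrins, semaphorins and their receptors were followed in 2 three-dimensional murine skin models, 1 labelled Itih5 knockout and 1 labelled wildtype, each read on 1 array. Members were all probe sets whose platform annotation gives exactly 1 symbol of the ephrin (Efna, Efnb), Eph receptor (Epha, Ephb), semaphorin (Sema), plexin (Plxn) or neuropilin (Nrp) families. This gave 56 of 33793 probe sets and 53 of 22180 named genes. They comprised 28 ligand genes, 24 receptor genes and Plxna4os1, an antisense RNA that carries a plexin symbol and belongs to neither side.

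The knockout model held keratinocytes and fibroblasts from skin of adult Itih5 knockout mice, and the wildtype model held the same cell types from adult wildtype mice. Itih5 encodes a heavy chain of the inter-alpha-trypsin inhibitor family, which the series studies for its part in keeping hyaluronan stable. Per the labels the mice were untreated and the primary cultures were passaged serially, and both titles mark day 7. The number of animals behind each model and the part of Itih5 that was removed are not stated in the labels. With 1 array per genotype nothing is known of the spread between replicates, and no test was made.

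Ephrins are membrane-bound ligands of the Eph receptor tyrosine kinases. A-type ephrins are held by a lipid anchor and B-type ephrins span the membrane, so both act between touching cells and can signal in both directions. Semaphorins carry a sema domain and signal through plexins, whose inner part acts on small GTPases. Class 3 semaphorins are secreted and mostly need a neuropilin as co-receptor, classes 4 to 6 span the membrane, and class 7 is lipid-anchored. In skin, Eph receptors are known for keratinocyte adhesion and differentiation, and semaphorin 3A for repelling sensory nerve fibres.

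Promoter sequence of 3 members that differed at least 2-fold is shown to give the start regions of 1 higher ligand, 1 lower ligand and 1 lower receptor. Of the 10 members with such a difference, 9 had a promoter entry, and Sema3b had none. The windows are the 250 bases before the transcription start, taken from RefSeq on build GRCm38.p6. The 3 shown are those of the 9 members with a window wholly outside the annotated gene. Capitals mark GC boxes (GGGCGG on either strand, overlapping matches joined).
Sema5a, chr15:32244563-32244812, plus strand: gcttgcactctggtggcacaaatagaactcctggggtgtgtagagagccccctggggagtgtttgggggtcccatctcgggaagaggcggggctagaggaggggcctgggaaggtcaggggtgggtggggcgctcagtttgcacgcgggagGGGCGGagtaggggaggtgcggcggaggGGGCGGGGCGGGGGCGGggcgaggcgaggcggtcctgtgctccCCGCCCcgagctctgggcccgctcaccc
Efna3, chr3:89322940-89323189, minus strand: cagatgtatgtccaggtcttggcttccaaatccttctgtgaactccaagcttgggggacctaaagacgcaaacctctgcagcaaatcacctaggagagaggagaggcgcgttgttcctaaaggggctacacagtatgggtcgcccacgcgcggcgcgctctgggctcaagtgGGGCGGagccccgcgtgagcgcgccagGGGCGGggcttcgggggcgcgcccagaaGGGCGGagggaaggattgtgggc
Epha2, chr4:141300971-141301220, plus strand: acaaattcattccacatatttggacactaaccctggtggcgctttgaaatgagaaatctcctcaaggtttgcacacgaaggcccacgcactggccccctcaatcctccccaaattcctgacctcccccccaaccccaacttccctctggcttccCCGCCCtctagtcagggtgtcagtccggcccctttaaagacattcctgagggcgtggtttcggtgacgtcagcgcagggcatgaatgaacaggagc

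The Sema5a window held 5 GC boxes, the Efna3 window 3 and the Epha2 window 1, and so the box was present beside members of either direction. Of 60 windows of the 46 members with an entry, 46 (76.7%) held a GC box, against 42.6% of 21262 windows of coding genes and 32.7% of all 32851 windows. An AP-1 motif (TGANTCA, both strands) was found in 3 of the 60 windows (5%, against 6.13% of coding and 6.75% of all windows). A TATA motif (TATAAA, both strands) was found in 1 (1.67%, against 11.6% of coding and 12.4% of all windows). The grainyhead motif AACNGGTT was found in 2 windows (3.33%, against 1.7% of coding and 1.79% of all windows). These matches describe letters in the windows and are no evidence of binding.

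Values are array intensities whose lost decimal point was restored, and each difference is log2 knockout minus log2 wildtype. Of the 53 genes, 50 had a restored point, and 42 of these counted as expressed because their higher value reached an intensity of 47.6, the median level of all probe sets. The other 8 restored genes lay below that level in both models. They were Epha3, Epha5, Epha6, Epha8, Sema3d, Sema6c, Plxnc1 and Plxna4os1, with intensities from 28.8 to 45.8. Folds are given where both values reached the threshold.

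Among the 42 expressed members, 3 were higher in the knockout model by 2-fold or more and 7 were lower by as much. Over all 12457 expressed genes the shares were 3.89% higher and 3.4% lower. The higher members were all semaphorins, namely Sema3b, Sema3a and Sema5a. The lower members were the ephrin gene Efna3, the Eph receptor genes Epha1, Epha2, Epha7 and Ephb6, and the membrane-bound semaphorins Sema4d and Sema7a. At 1.5-fold, 5 members were higher and 14 lower, against 11.8% and 8.48% of all expressed genes. The 5 higher ones were 4 class 3 semaphorins and Sema5a. Of these, Sema3e (82.9 in knockout and 47.4 in wildtype) counted as expressed through the knockout array only. Of the lower ones, Plxnb3 (39.3 in knockout and 69.2 in wildtype) counted through the wildtype array only. The median over the 42 members was -0.13, against 0.04 over all expressed genes. Of the 10 members at least 2-fold apart, 9 had 1 possible place of the decimal point on both arrays, and the exception was Efna3, with a probability above 0.999 for its place.

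Both labelled cell types were found by their markers, and these differed between the models too. The summed intensity of restored keratinocyte markers was 8277 in the knockout model against 19625 in wildtype, and that of fibroblast markers 7432 in knockout and 3875 in wildtype. Their part in the differences of the ephrins, Eph receptors, semaphorins and plexins was not tested. In whole models, fewer cells of a type and less RNA per cell cannot be told apart.

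**Figure D1:**
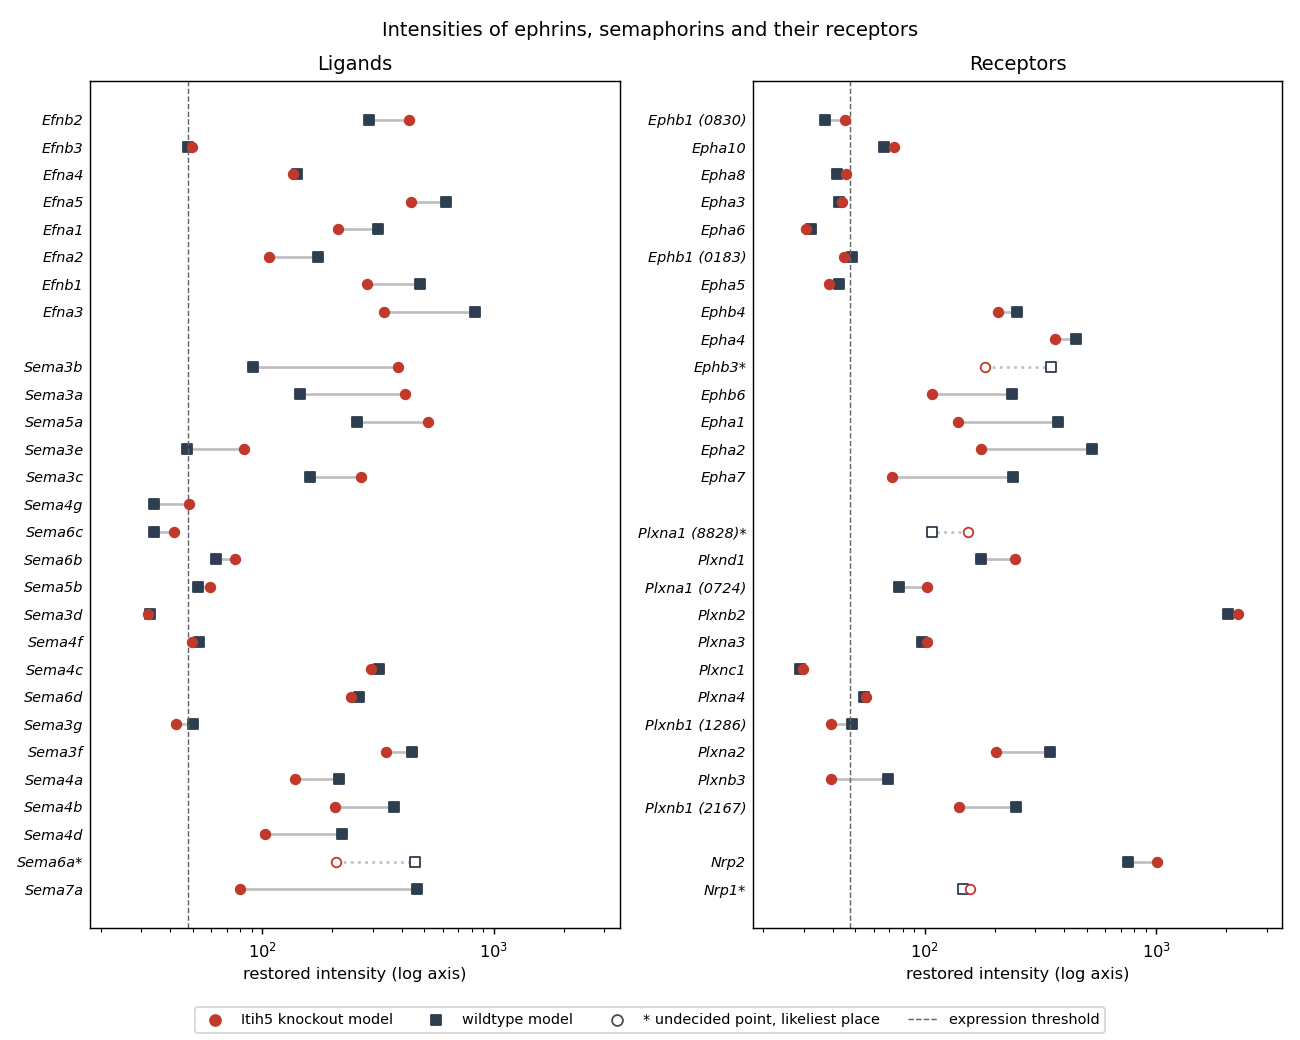
Restored intensity (log axis) of each member probe set in the Itih5 knockout model (red circles) and the wildtype model (dark squares), ligands left and receptors right, sorted by difference within each family. Open symbols and asterisks mark the 4 probe sets with an undecided point at their likeliest place, numbers after a name are the last digits of the probe set, and the dashed line is the threshold of 47.6. Sema3b (383 in knockout and 91.4 in wildtype) and Sema7a (79.7 in knockout and 466 in wildtype) are the widest gaps among restored ligands, and Epha7 (72.2 in knockout and 240.4 in wildtype) is the widest among restored receptors.

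The ephrin ligand genes were mostly lower in the knockout model. All 8 were expressed, 1 was lower by 2-fold or more and 0 were higher by as much, against 3.4% and 3.89% of all expressed genes. Their median difference was -0.54, or -0.28 over the 6 whose place had a probability of at least 0.99. Efna3 (probe set 17407001, Entrez 13638), which encodes a lipid-anchored ligand of EphA receptors, read 336 in the knockout model against 827 in wildtype, 2.46-fold lower. The 5 A-type genes all read below 0, from -1.30 for Efna3 to -0.06 for Efna4. Efna2 read 107 in the knockout model against 174 in wildtype (1.62-fold lower). Efna1, whose product is the ligand most often paired with EphA2 in epithelia, read 212 in knockout and 316 in wildtype, and Efna5 read 436 in knockout and 620 in wildtype, both under 1.5-fold.

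The B-type ephrins did not share a direction. Efnb1, a transmembrane ligand of EphB receptors, read 284 in the knockout model against 481 in wildtype, 1.70-fold lower. Efnb2, known as the arterial partner of EphB4, read 431 in the knockout model against 289 in wildtype, and was the ephrin with the most positive difference (0.58). Efnb3 was close to the threshold in both models, at 49.4 in knockout and 47.8 in wildtype. The genes Efna1, Efna3 and Efna4 are direct neighbours among coding genes of chromosome 3, yet their differences were -0.58, -1.30 and -0.06.

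Eph receptor genes had a median of -0.72 over 8 expressed members, with 4 lower by 2-fold or more and 0 higher by as much. The shares over all expressed genes were 3.4% lower and 3.89% higher. Epha7 (probe set 17412296, Entrez 13841) read 72.2 in the knockout model against 240.4 in wildtype, 3.33-fold lower. Epha2 (17421033, Entrez 13836), the EphA receptor best known from epithelial cells, read 175 in the knockout model against 525 in wildtype, 3.00-fold lower. Epha1 (17466397, Entrez 13835), the founding member of the family, read 138 in knockout and 376 in wildtype, 2.72-fold lower. Ephb6 (17457807, Entrez 13848), whose kinase domain is inactive, read 107 in the knockout model against 237 in wildtype, 2.21-fold lower.

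The other expressed Eph receptors lay within 1.5-fold. Epha4, which binds ephrins of both types, read 366 in the knockout model against 451 in wildtype. Ephb4, the receptor of ephrin-B2, read 207 in knockout and 250 in wildtype. Epha10, also without kinase activity, read 73.2 in knockout and 66.5 in wildtype and was the 1 expressed Eph receptor above 0. Ephb1 had 2 probe sets near the threshold that differed in sign, 1 with 44.5 in knockout and 48.6 in wildtype and the other with 44.9 in knockout and 37.2 in wildtype. Of the 9 A-type receptors, 3 were thus at least 2-fold lower, 2 under 1.5-fold and 4 below the threshold in both models.

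The lower median of the family depended on which receptors were counted. Over all 12 restored Eph receptors without the expression filter it was -0.20, and over the 7 that reached the 60th percentile of all probe sets it was -1.14. Over the 5 with 1 possible place of the point it was -1.44. The filters act on low genes, and Epha3, Epha5, Epha6 and Epha8, all near background, had differences between -0.13 and 0.13.

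**Figure D2:**
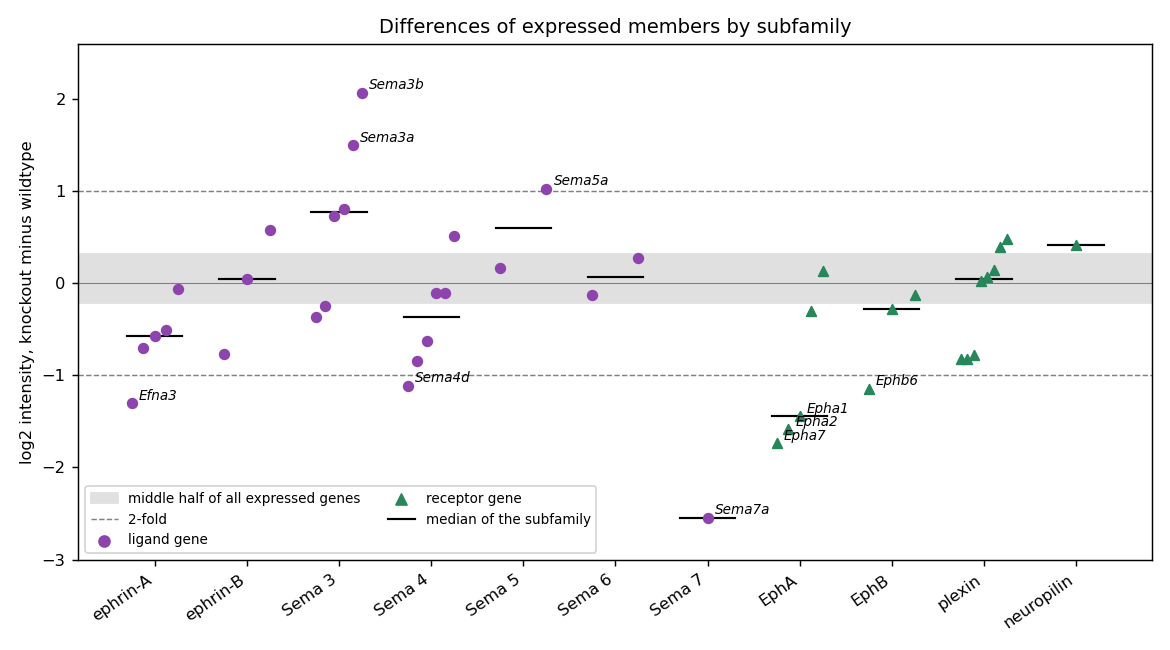
Difference in log2 intensity, knockout minus wildtype, of the 42 expressed members by subfamily, with ligand genes as purple circles, receptor genes as green triangles and black bars at subfamily medians. The grey band spans the 25th to 75th percentile of all expressed genes (-0.21 to 0.32) and dashed lines mark 2-fold; class 3 semaphorins reach 2.07, while EphA receptors reach -1.74 and Sema7a -2.55.

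Semaphorins went both ways, with most secreted class 3 genes above 0 and most membrane-bound ones below. Of 17 expressed semaphorins, 3 were higher by 2-fold or more and 2 lower, against 3.89% and 3.4% of all expressed genes. Their median was -0.11, or 0.17 over the 11 with 1 possible place of the point. In class 3 the median of 6 expressed genes was 0.77, with 4 above 0. Of these 6, Sema3e reached the threshold in the knockout model only and Sema3g in the wildtype model only. In classes 4 to 7 the median of 11 genes was -0.11, with 7 below 0. Over all 12457 expressed genes 6783 read above 0 and 5674 below, so these counts of few genes alone do not set the classes apart. Sema3b (probe set 17530930, Entrez 20347), whose human counterpart has been studied as a tumour suppressor, read 383 in the knockout model against 91.4 in wildtype, 4.20-fold higher. Its difference ranked 43rd from the top among the 12457 expressed genes. Sema3a (17434764, Entrez 20346), the nerve-repelling semaphorin, read 411 in the knockout model against 145 in wildtype, 2.83-fold higher.

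Sema3c and Sema3e were also above 0. Sema3c read 266 in the knockout model against 160 in wildtype, 1.66-fold higher. Sema3e, which can bind plexin D1 without a neuropilin, read 82.9 in the knockout model, while its value of 47.4 in the wildtype model was just under the threshold. Sema3f, a ligand of neuropilin 2, did not follow them and read 341 in knockout and 440.5 in wildtype. Sema3g read 42.2 in knockout and 50.04 in wildtype, and Sema3d was near background at 32.2 in knockout and 32.6 in wildtype. Sema3b and Sema3f lie on chromosome 9 with 3 coding genes between them and differed in sign, at 2.07 and -0.37. Sema3a and Sema3e lie on chromosome 5, also with 3 coding genes between them, and both read higher in the knockout model. Sema3d is the direct neighbour of Sema3a among coding genes, and its difference was -0.02, with both values below the threshold.

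Of 6 expressed class 4 semaphorins, 5 read below 0, and the median was -0.37. At 1.5-fold, 3 were lower and 0 higher, against 8.48% and 11.8% of all expressed genes. Sema4d (17292569, Entrez 20354), a ligand of plexin B1 that can be shed from the membrane, read 103 in the knockout model against 222 in wildtype, 2.16-fold lower. Sema4b read 206 in knockout and 368 in wildtype (1.79-fold lower) and Sema4a 139 in knockout and 214 in wildtype (1.54-fold lower). Sema4c, a ligand of plexin B2, was nearly level at 295 in knockout and 318 in wildtype, as was Sema4f at 49.4 in knockout and 53.2 in wildtype. Sema4g was the 1 class 4 gene above 0, with 48.4 in the knockout model and 33.9, below the threshold, in the wildtype model.

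The most negative difference of all restored members was that of Sema7a (17517812, Entrez 20361), the lipid-anchored semaphorin. It read 79.7 in the knockout model against 466 in wildtype, 5.84-fold lower, and ranked 76th from the bottom among the expressed genes. In class 5, Sema5a (17310837, Entrez 20356), which carries thrombospondin repeats outside the cell, read 521 in the knockout model against 256 in wildtype, 2.04-fold higher. That call rested on a narrow margin, since its difference was 0.97 after quantile normalization and 0.98 with a pseudocount of 16. Sema5b read 59.2 in knockout and 52.7 in wildtype. In class 6, Sema6b (76.3 in knockout and 63.1 in wildtype) and Sema6d (240.2 in knockout and 263 in wildtype) were under 1.5-fold.

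No plexin or neuropilin with a restored point was at least 2-fold apart in either direction. With only 9 expressed genes, and shares of 3.89% higher and 3.4% lower over all expressed genes, this count does not set them apart. The median over 9 expressed genes was 0.07, with 6 above 0, but -0.78 over the 5 with 1 possible place of the point. Among those below 0, Plxnb1, the receptor of semaphorin 4D, read 140 in the knockout model against 248 in wildtype, 1.77-fold lower. Its weaker probe set read 39.3 in knockout and 48.3 in wildtype, and the mean difference over both probe sets was -0.56, against -0.83 on the first alone. Plxna2, a receptor of transmembrane class 6 semaphorins, read 202 in knockout and 346 in wildtype, 1.71-fold lower. Plxnb3 read 39.3, below the threshold, in the knockout model against 69.2 in wildtype.

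The other plexins were level or somewhat higher in the knockout model. Plxnd1, the receptor of semaphorin 3E, read 244 in the knockout model against 175 in wildtype (1.39-fold higher), and the restored probe set of Plxna1 read 102 in knockout and 77.6 in wildtype (1.32-fold higher). Plxnb2, a receptor of class 4 semaphorins, read 2248 in knockout and 2028 in wildtype. Plxna3 read 102 in knockout and 97.2 in wildtype and Plxna4 55.4 in knockout and 54.6 in wildtype. Nrp2, a co-receptor of class 3 semaphorins and of VEGF-C, read 1001 in the knockout model against 750.1 in wildtype, 1.33-fold higher. Plxnc1, the plexin receptor of semaphorin 7A, was near background in both models, at 29.8 in knockout and 28.8 in wildtype.

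Ligands and receptors as wholes differed little in their medians. The 25 expressed ligands had a median of -0.11, with 3 higher by 2-fold or more and 3 lower. The 17 expressed receptors had one of -0.27, with 0 higher and 4 lower. The shares at 2-fold over all expressed genes were 3.89% higher and 3.4% lower. Among members with 1 possible place of the point, the medians lay further apart, at 0.02 over 12 ligands and -0.82 over 10 receptors. At 1.5-fold, 5 ligands were higher and 7 lower, whereas 0 receptors were higher and 7 lower. Over all expressed genes the shares at 1.5-fold were 11.8% higher and 8.48% lower. The 5 higher genes were ligands, but with 17 receptors at such a share few higher ones would be found in any case. Of the 19 membrane-bound ligands (ephrins and semaphorins of classes 4 to 7), 13 read below 0, against 5674 of all 12457 expressed genes. Known partners did not share a direction throughout. Sema4d and Plxnb1 were both lower. Efnb2 (0.58) and Ephb4 (-0.27) differed in sign, as did Sema3f (-0.37) and Nrp2 (0.42). Sema4c (-0.11) and Plxnb2 (0.15) also differed in sign, though both were nearly level. Sema7a, at -2.55, could not be set against its partner Plxnc1, which was below the threshold in both models. Sema3e and Plxnd1 both read higher, at 0.81 and 0.48, though Sema3e was just under the threshold in the wildtype model. With 1 array per genotype, none of these contrasts could be tested.

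In 3 genes, and in a second probe set of Plxna1, the place of the decimal point stayed below the required probability of 0.95. For Nrp1, the co-receptor of semaphorin 3A, the pair of 157 in knockout and 145 in wildtype and the pair of 1567 in knockout and 1454 in wildtype both give a difference of 0.11, and together hold a probability of 99.5%. Its level is therefore undecided, while its difference is much less so. Likewise the second probe set of Plxna1 had a difference of 0.52 with 97.8%, and Ephb3 one of -0.94 with 95.6%, most likely from 181 in the knockout model against 349 in wildtype. Sema6a read 208 in the knockout model, and its wildtype value was 456 with 83.7%, a difference of -1.13, or 45.6 with 15.3%, a difference of 2.19. The direction of Sema6a is thus the least settled among the members.

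**Figure D3:**
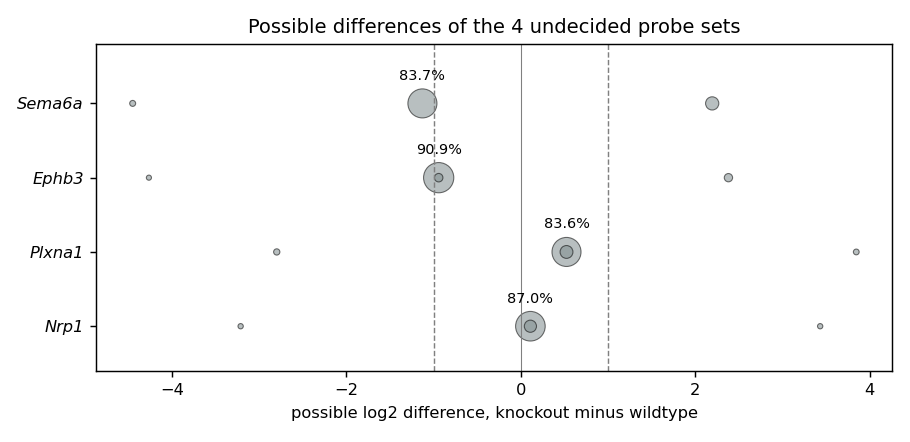
Possible log2 differences, knockout minus wildtype, of the 4 member probe sets with an undecided decimal point, with circle area growing with probability and the likeliest pair's probability printed above it. Dashed lines mark 2-fold; the likeliest pairs lie at -1.13 for Sema6a, -0.94 for Ephb3, 0.52 for Plxna1 and 0.11 for Nrp1, and a smaller circle within a larger one is a pair with the same difference at another level.

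Genes that act inside the cell or beside these receptors were counted in the same way, beside 3.89% higher and 3.4% lower over all expressed genes. Of 25 expressed partners of ephrin and Eph signalling, 0 were higher by 2-fold or more and 1 was lower, with a median of -0.15. That gene was Grip1, a scaffold that binds the tail of B-type ephrins, with 145 in the knockout model against 404 in wildtype, 2.78-fold lower. The exchange factor genes Vav3 (123 in knockout and 218 in wildtype) and Tiam1 (379 in knockout and 645 in wildtype) also read lower, and the adaptor gene Grb10 (427 in knockout and 224 in wildtype) read higher, all under 2-fold. The list had 33 genes with a probe set, of which 31 were restored.

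Of 32 expressed partners of semaphorin and plexin signalling, 1 was higher by 2-fold or more and 0 were lower by as much. Their median was 0.38, against 0.04 over all expressed genes. Of the 32, 23 read above 0 and 9 below, against 6783 and 5674 of all 12457 expressed genes. At 1.5-fold, 12 were higher and 4 lower, against 11.8% and 8.48% of all expressed genes. The list also holds the VEGF genes Vegfa, Vegfb and Vegfc, which all read above 0. The higher gene was Kdr, a VEGF receptor that works with neuropilins, at 87.4 in the knockout model and 36.1, below the threshold, in the wildtype model. Flt1, another VEGF receptor gene, read 119 in knockout and 60.3 in wildtype, and Mical2, an oxidoreductase that acts on actin downstream of plexins, 327 in knockout and 173 in wildtype. The receptor kinase gene Mst1r, a partner of plexin B1, read 126 in knockout and 234 in wildtype. Of the 41 listed genes with a probe set, 35 were restored, and L1cam and Farp1 were among the undecided. At their likeliest places L1cam had 123 in knockout and 377 in wildtype, a difference of -1.61, and Farp1 had 50.01 in knockout and 138 in wildtype, a difference of -1.46.

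The marker lists of the labelled cell types each had 1 direction among expressed genes. All 6 expressed keratinocyte markers read below 0 (median -1.10), with Dsg3 at 2150 in the knockout model against 6581 in wildtype and Krt14 at 4076 in knockout and 9538 in wildtype. All 7 expressed fibroblast markers read above 0 (median 0.89), with Twist2 at 495 in knockout and 160 in wildtype and Col1a1 at 2145 in knockout and 876 in wildtype. Lum alone among the restored fibroblast markers was below the threshold in both models, at 24.6 in knockout and 30.9 in wildtype.

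Markers of other cell types were expressed in part. Of 6 endothelial markers, Kdr (given above, at least 2-fold higher) and Tie1, with 54.1 in knockout and 46.3, below the threshold, in wildtype, were expressed. Pecam1, Cdh5, Tek and Emcn were below the threshold in both models, and the list summed to 275 in the knockout model against 229 in wildtype. Of 6 immune markers, Cd68 alone was expressed (861 in knockout and 1161 in wildtype), and the 5 restored ones summed to 993 in knockout and 1313 in wildtype. Of 6 melanocyte markers, Mlana (705 in knockout and 109 in wildtype) and Mitf (464 in knockout and 215 in wildtype) were at least 2-fold higher, while Tyr, Dct and Tyrp1 were below the threshold, and the list summed to 1328 in knockout and 479 in wildtype. Among Schwann cell and nerve markers, Ngfr read 57.2 in knockout and 117 in wildtype and Sox10 51.3 in knockout and 66.4 in wildtype, and the 3 restored ones summed to 146 in knockout and 223 in wildtype. The point of Tubb3 was undecided, and at its likeliest place it went the other way, with 59.7 in knockout and 28.9 in wildtype. The 4 restored markers of smooth muscle and pericytes, all of low intensity, summed to 204 in each model. That sum leaves out Acta2, whose point was undecided. At its likeliest place Acta2 read 287 in knockout and 151 in wildtype. The part of these markers in the members' differences was not tested.

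**Figure D4:**
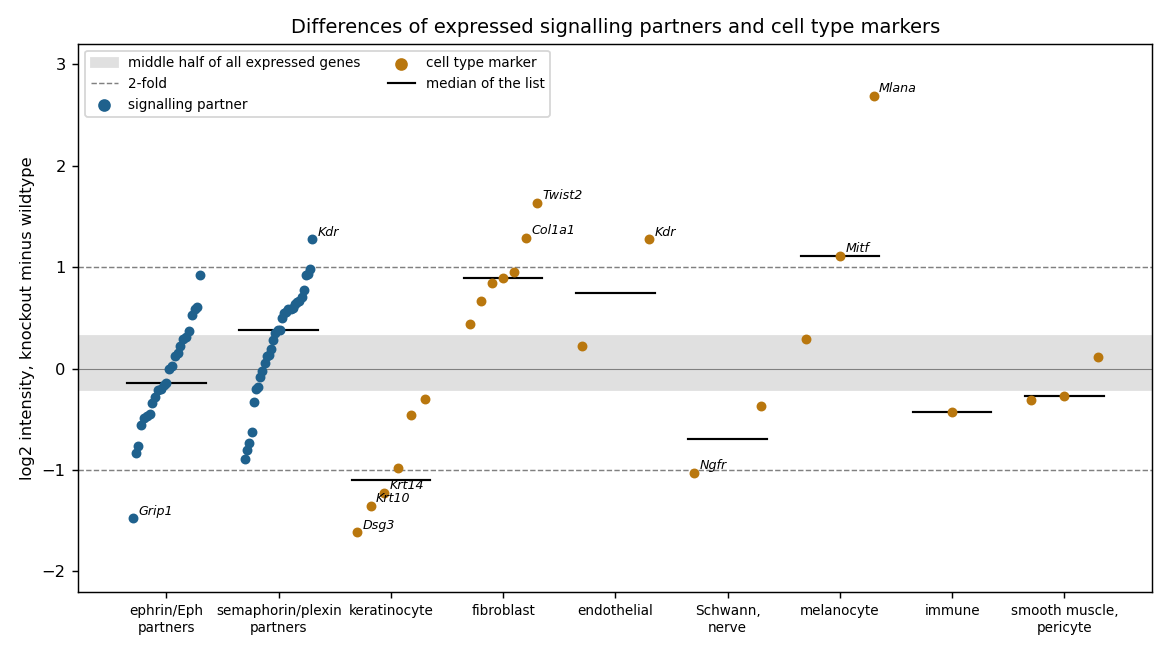
Difference in log2 intensity, knockout minus wildtype, of expressed signalling partners (blue) and cell type markers (orange), with black bars at list medians, names beside genes at least 2-fold apart and the grey band at the 25th to 75th percentile of all expressed genes. Keratinocyte markers lie below 0 (median -1.10) and fibroblast markers above 0 (median 0.89), while the partner lists have medians of -0.15 and 0.38.

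Itih5, the gene named by the genotype, read 30.4 in the knockout model against 29.8 in wildtype, both below the threshold, so its probe set checks neither label. Over all restored probe sets, intensities ran from 18.3 to 14117 in the knockout and from 18.5 to 15400 in the wildtype model, and the 5th percentiles were both 21.4.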

How the data were processed

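RNA of 1 Itih5 knockout and 1 wildtype skin model was amplified and labelled for Affymetrix arrays, per the labels' protocols. The authors deposited linear intensities per probe set. Their scanning, summary and normalization were not given in the sources used here, and are treated as unknown. The decimal point was missing from 67457 of 67586 deposited values. A place was possible if it gave the shortest form of a single-precision number that is 2 to a single-precision power, between 18 and 20000. Where several places were possible, pairs were weighed by the joint distribution of level and absolute difference over all probe sets (25 rounds of expectation maximisation), and only pairs reaching a probability of 0.95 were used. This restored 31841 of 33793 probe sets (94.2%), with 47.4 expected to be misplaced, and 0.181 among the 42 expressed members. Of these members, 22 had 1 possible place on both arrays. For the rest, a true difference near 10-fold could be hidden by a shift of the point. The step was tested on simulated data.

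Gene names came from the platform annotation, in which 23521 had 1 symbol, 1814 several and 8458 were unnamed here. The restored probe set with the highest mean stood for a gene. Medians of the arrays were 46.2 in knockout and 46.6 in wildtype, so no further normalization was applied. Members were named by class, with every expressed member at least 1.5-fold apart. Members and lists were chosen with earlier results of these data known. Alternatives were quantile normalization, a pseudocount, other filters, folds, probe set rules and probabilities. Analyses used Python 3.11.15, numpy 2.4.6, pandas 2.3.3 and scipy 1.17.1.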

Additional observations from a re-analysis of the deposited data

How the results depend on the processing

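Excluding the changes of fold threshold, 2 or 3 members were higher by 2-fold or more and 6 to 8 lower under each of the 8 alternatives. Sema5a dropped under 2-fold after quantile normalization and with the pseudocount, Efna3 was not counted with 1 possible place only, and Sema6a joined the lower members with every likeliest place. By construction, 5 members were higher and 14 lower at 1.5-fold, and 1 and 3 at 3-fold. Of 48 medians under alternatives, 8 moved by over 0.2 log2. The Eph receptor median was -0.20 without a filter, -1.14 with the stricter filter, -1.44 with 1 possible place only and -0.94 with every likeliest place, since each counts other receptors. With 1 possible place only, the receptor median was -0.82, the semaphorin median 0.17 and that of plexins and neuropilins -0.78, and with a minimum probability of 0.99 the ephrin median was -0.28, by counting fewer genes. The ligand median ranged from -0.25 to 0.02, so its sign is not settled. Of 303 member values under alternatives, 3 moved (Sema7a, Ephb1 and Plxnb1) and 0 of those at least 2-fold apart changed sign. No paired analysis was possible because there is a single array per genotype, so none could be left out either.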

Other observations

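Other guidance ligands and receptors, a list of netrins, Slit and Robo genes, FLRT proteins and related genes, went both ways. Of 17 expressed members, 0 were higher by 2-fold or more and 1 was lower, against 3.89% and 3.4% of all expressed genes. Differences ran from -1.13 to 0.64, with a median of -0.03. At 1.5-fold, 1 was higher and 4 were lower, against 11.8% and 8.48% of all expressed genes. The lower gene was Ntn4, a netrin of basement membranes, at 34.2, below the threshold, in the knockout model against 74.6 in wildtype. Draxin, a secreted guidance protein, read 146 in the knockout model against 292 in wildtype, and Flrt2 197 in knockout and 360 in wildtype, both under 2-fold. Robo2, a receptor of Slit proteins, read 333 in the knockout model against 215 in wildtype. The points of Robo1 and Slit3 were undecided, and at their likeliest places both read lower in the knockout model (451 in knockout and 1010 in wildtype and 106 in knockout and 272 in wildtype).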
